A study of Mus musculus with 11 samples.

Results

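Igf2, H19, Igf2r, Cdkn1c, Plagl1, Grb10 and Dlk1 are imprinted genes of fetal growth, transcribed mainly from either the maternal or the paternal copy. The 7 genes were chosen by name with earlier results of these arrays in view. All 7 were measured, by 14 of the 15247 probes, among 7114 genes with a symbol. Igf2 had 2 probes, H19 had 7, and each of the other genes had 1.

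Igf2 encodes an insulin-like growth factor that drives growth of the embryo and placenta, and H19 next to it gives a non-coding RNA. In the mouse, Igf2 is read from the paternal copy and H19 from the maternal copy, under shared enhancers and a control region whose methylation differs between the parental copies. Igf2r encodes a receptor that takes Igf2 protein to the lysosome. Cdkn1c encodes the cyclin-dependent kinase inhibitor p57Kip2, Plagl1 a zinc finger transcription factor known in the mouse to act on Igf2 and H19, Grb10 an adaptor that restrains insulin and IGF receptor signalling, and Dlk1 a transmembrane protein related to Notch ligands. Many of these genes are abundant in the fetus and turned down after birth.

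RNA from 11 mouse samples was hybridised to 2-colour arrays, 1 array per sample, with the sample's own RNA in Cy3 and RNA of a mouse embryo in Cy5. The arrays were labelled NRAS_MEL, HRAS_MEL, D6_MEL, Melan A (a mouse melanocyte line), VA_475, VA_MEF, 3T3 (a mouse fibroblast line), Heart, Kidney, Liver and Lung. The series title concerns RAS isoforms in melanocytes; what D6_MEL, VA_475 and VA_MEF are is not spelled out in the labels. The descriptions give NRAS_MEL the same code as D6_MEL with Nras added, and HRAS_MEL a code of its own; the sources used here do not say how RAS was introduced, whether a line is 1 clone, or the strain, age and number of animals behind the organs. Every array carried the same reference, so a value says how a gene's RNA compared with embryo RNA, and no gene's level can be set against another's.

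Each group had 1 array, so there is no error between samples and no test: all values are descriptions, and the only spread shown is that between probes of a gene. Values are log2 ratios of own RNA over embryo RNA after centring each array on its median. The direction is likely, not stated: the deposited signs were turned because organ markers stood out in the negative direction there, the farthest array lying at -8.36 from the median of the arrays for 3 liver markers, -7.79 for 2 lung markers, -5.52 for 3 kidney markers and -4.55 for 2 heart markers. If the table ran the other way, as sample titles such as 3T3 / Reference would read, every sign below would turn. Natural logarithms are possible too, and would make each log2 value larger in size.

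Several labels did not match marker genes. Of the markers written for 4 organs, the 3 measured for liver peaked (median 2.54) on the array labelled Lung, the 2 for lung (median 5.96) on the array labelled Liver, the 2 for heart (median 3.77) on the array labelled Melan A, and the 3 for kidney (median 5.60) on Kidney. Of 15 pigment cell markers 5 were measured, with medians from -1.20 in VA_475 to 0.71 in the array labelled VA_MEF, and -0.99 to -0.50 in NRAS_MEL, HRAS_MEL and D6_MEL. These 5 did not run together. Mlph stood at 2.55 in NRAS_MEL, 2.36 in HRAS_MEL and 3.18 in D6_MEL, where Kit, Ednrb and Rab27a lay below 0 and Rab38 between -0.99 and 0.06. Mlph was also at 2.94 in the array labelled Heart and 3.06 in the array labelled VA_MEF, and at most 0.57 elsewhere. Rab38 reached 3.40 in the array labelled VA_MEF and at most 0.31 on the others. In the array labelled VA_MEF, Rab27a was at 0.71, Kit at -1.63 and Ednrb at -3.48. The array labelled Heart, at -0.96 for the heart markers, lay close to D6_MEL over all genes. Fibroblast markers, 11 of 13 measured, had medians of -1.50 to -0.00, highest in 3T3. The next was -0.67 in HRAS_MEL, and D6_MEL was at -0.91. In HRAS_MEL minus D6_MEL, Col1a2 was at 3.52, Pdgfrb at 1.92, Dcn at 1.81, Fn1 at 1.75 and Col3a1 at -1.05. The other measured fibroblast markers were within 2-fold there, where 11.1% of all genes were at least 2-fold apart. The 2 blood markers measured of 4 had medians of -7.14 to -0.04, highest in the array labelled Liver. The arrays labelled Heart, Melan A, Liver and Lung are therefore named by their labels only. So is the array labelled VA_MEF, a label not spelled out, whose pigment cell median was the highest. None was moved to another group.

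Start regions of Igf2, Plagl1 and Dlk1, which had their highest ratio in HRAS_MEL, are shown with their CG pairs, at which DNA can be methylated. Whether these windows carry the marks of the parental copies is not known here. H19, also highest in HRAS_MEL, is not shown. The sequences are from RefSeq. Each window runs from 250 bases before to 50 bases after a start, is written 5′ to 3′ on the gene's strand in build GRCm38.p6, and has its CG pairs in capitals. Igf2 has 4 such windows, of which those with the most and the fewest CG pairs are given.
Igf2, chr7:142658755-142659054, minus strand: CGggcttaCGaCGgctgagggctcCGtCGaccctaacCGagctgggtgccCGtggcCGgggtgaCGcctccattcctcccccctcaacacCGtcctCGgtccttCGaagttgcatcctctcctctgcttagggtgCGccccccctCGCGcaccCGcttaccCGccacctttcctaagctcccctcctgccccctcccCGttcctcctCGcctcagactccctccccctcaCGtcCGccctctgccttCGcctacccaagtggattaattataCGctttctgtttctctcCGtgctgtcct
Igf2, chr7:142666767-142667066, minus strand: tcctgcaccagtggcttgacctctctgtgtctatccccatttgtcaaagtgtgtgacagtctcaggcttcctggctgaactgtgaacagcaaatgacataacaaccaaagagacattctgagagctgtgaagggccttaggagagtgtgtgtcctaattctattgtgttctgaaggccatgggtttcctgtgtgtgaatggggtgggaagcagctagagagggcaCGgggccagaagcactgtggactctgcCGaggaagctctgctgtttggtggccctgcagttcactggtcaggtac
Plagl1, chr10:13090582-13090881, plus strand: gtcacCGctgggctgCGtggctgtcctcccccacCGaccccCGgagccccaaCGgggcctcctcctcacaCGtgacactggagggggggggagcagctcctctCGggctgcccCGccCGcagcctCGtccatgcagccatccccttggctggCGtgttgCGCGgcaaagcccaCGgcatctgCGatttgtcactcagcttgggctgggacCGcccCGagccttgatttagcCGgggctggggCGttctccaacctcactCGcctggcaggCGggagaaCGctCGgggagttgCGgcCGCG
Dlk1, chr12:109452573-109452872, plus strand: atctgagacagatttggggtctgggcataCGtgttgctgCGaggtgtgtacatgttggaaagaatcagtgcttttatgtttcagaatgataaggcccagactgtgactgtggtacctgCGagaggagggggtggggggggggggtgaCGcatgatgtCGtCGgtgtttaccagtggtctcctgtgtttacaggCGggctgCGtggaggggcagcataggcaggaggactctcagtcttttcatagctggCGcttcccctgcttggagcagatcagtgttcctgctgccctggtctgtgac
These windows hold 24 and 2 CG pairs for Igf2, 26 for Plagl1 and 9 for Dlk1, where the median of 32851 RefSeq windows is 7. The other Igf2 windows hold 14 and 7, those of Grb10 hold 45 and 9, and that of Igf2r holds 34. The letters GGGGCCCC, the core of a GC-rich element bound by Plagl1 protein, were searched on both strands and lay in 0 of the 9 windows of Igf2, Plagl1, Dlk1, Grb10 and Igf2r and in 1.08% of all windows. TATAAA lay in 0 of the 9 and in 13.6% of all windows. H19 and Cdkn1c were not searched. The arrays hold no methylation or binding data, the probes' positions along the genes are not known here, and these counts describe the sequences only.

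All 7 genes lay below the embryo on nearly every array. Of 77 values, 75 lay below 0, as did 54.2% of all gene values, and 65 were at least 2-fold below the reference, as were 11.3% of all gene values. Both exceptions were near 0, Cdkn1c at 0.37 in the array labelled Liver and Igf2r at 0.08 in the array labelled Melan A. Igf2 and H19 were at least 2-fold below on all 11 arrays, and Igf2r on 3. The genes were chosen on these levels, so the counts are descriptions.

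**Figure D1:**
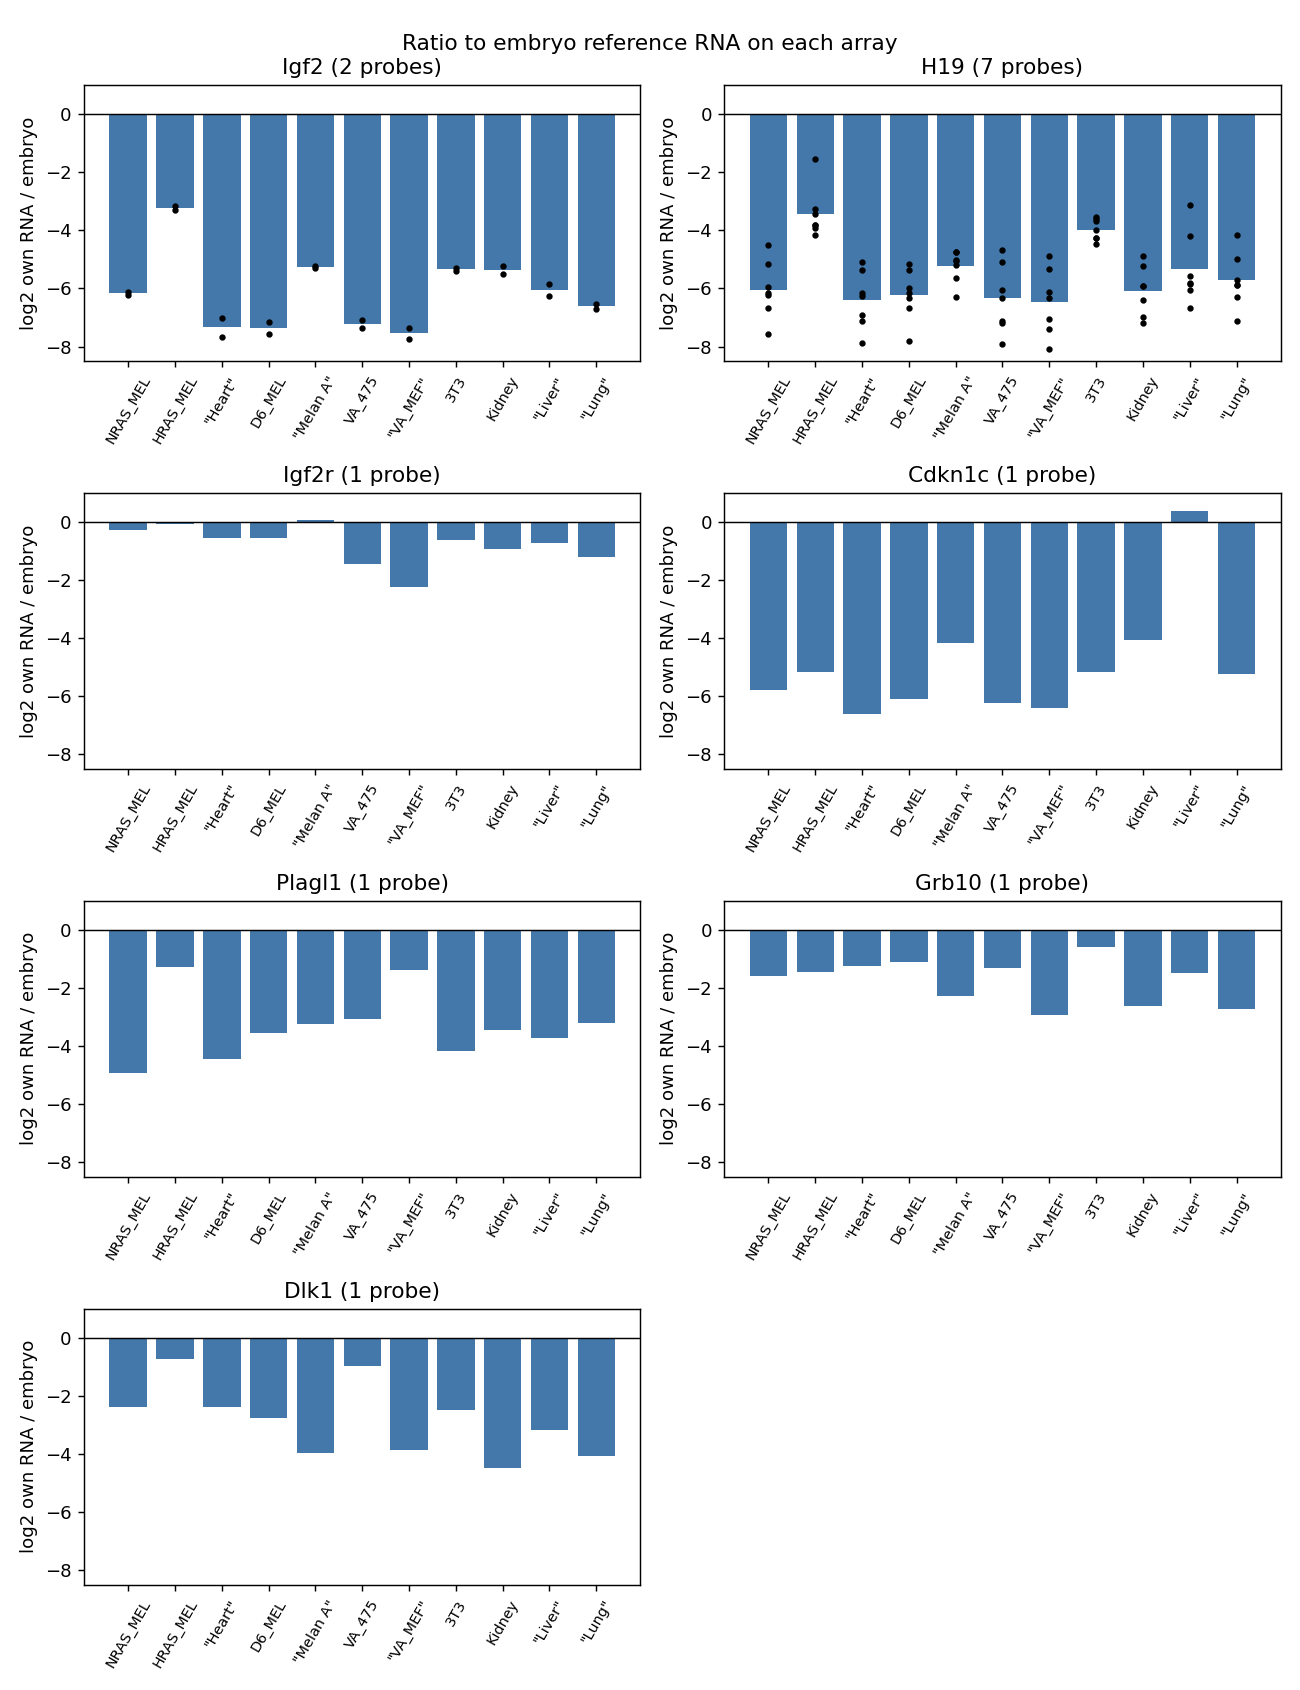
Each panel shows the log2 ratio of own RNA over embryo reference RNA for 1 gene on the 11 arrays, 1 bar per array. Black points are the single probes of Igf2 and H19, and labels in quotation marks are those of arrays named by label only. Nearly all bars point down, those of Igf2, H19 and Cdkn1c farthest, and HRAS_MEL has the shortest bar for Igf2, H19, Plagl1 and Dlk1.

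The growth factor gene was far below the embryo throughout. Igf2 stood at -6.17 in NRAS_MEL, -3.23 in HRAS_MEL, -7.34 in the array labelled Heart, -7.36 in D6_MEL and -5.26 in the array labelled Melan A. It stood at -7.21 in VA_475, -7.55 in the array labelled VA_MEF and -5.34 in 3T3, and at -5.36 in Kidney, -6.05 in the array labelled Liver and -6.62 in the array labelled Lung. HRAS_MEL was thus apart from all others, at a ratio 9.39-fold below the embryo, while D6_MEL was 164-fold below. Among all genes on an array, Igf2 ranked between the lowest and the 14 lowest on 10 arrays, and at place 66 from the bottom of 7094 in HRAS_MEL. The SD over its 2 probes was 0.07 to 0.47.

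Neighbouring arrays in that order mostly lay closer together than the spread between probes, which is not an error between arrays. Only 2 of the 10 gaps between neighbours were wider than the root mean square SD between probes of a gene for that pair of arrays, which was 0.32 to 0.80 over the pairs. They were the gap of 2.03 between HRAS_MEL and the array labelled Melan A and that of 0.69 between Kidney and the array labelled Liver. Igf2's own probes gave a different yardstick. The gap of 0.45 between NRAS_MEL and the array labelled Lung exceeded their SD of 0.04 for that pair. That of 0.59 between the array labelled Lung and VA_475 exceeded their SD of 0.31. The remaining gaps were below the SD of Igf2's own probes. Signal intensities were not analysed here, so at ratios this low it is not known whether own RNA was above background, and differences among the lowest arrays may be bounded by it.

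H19 followed a similar course. Its mean over 7 probes was -6.04 in NRAS_MEL, -3.42 in HRAS_MEL, -6.39 in the array labelled Heart, -6.21 in D6_MEL and -5.24 in the array labelled Melan A. It was -6.34 in VA_475, -6.46 in the array labelled VA_MEF and -3.98 in 3T3, and -6.08 in Kidney, -5.33 in the array labelled Liver and -5.72 in the array labelled Lung. HRAS_MEL and 3T3 stood above the other 9 arrays, and the gap of 1.27 from 3T3 to the next array exceeded the probe spread. The gap of 0.55 between HRAS_MEL and 3T3 also exceeded that pair's root mean square probe SD of 0.43, and 7 of 7 H19 probes were higher in HRAS_MEL, but it was below the SD of 0.68 of H19's own probes for that pair.

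The H19 probes differed in level. On a single array their SD was 0.37 to 1.22, and in D6_MEL they ran from -7.80 to -5.16. Of the 7 probes, 6 were highest in HRAS_MEL and 6 had 3T3 second. The exception was a probe at -3.13 in the array labelled Liver, above its -3.81 in HRAS_MEL, and another probe reached -1.53 in HRAS_MEL. These 2 probes also had the weakest ratios on average.

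**Figure D2:**
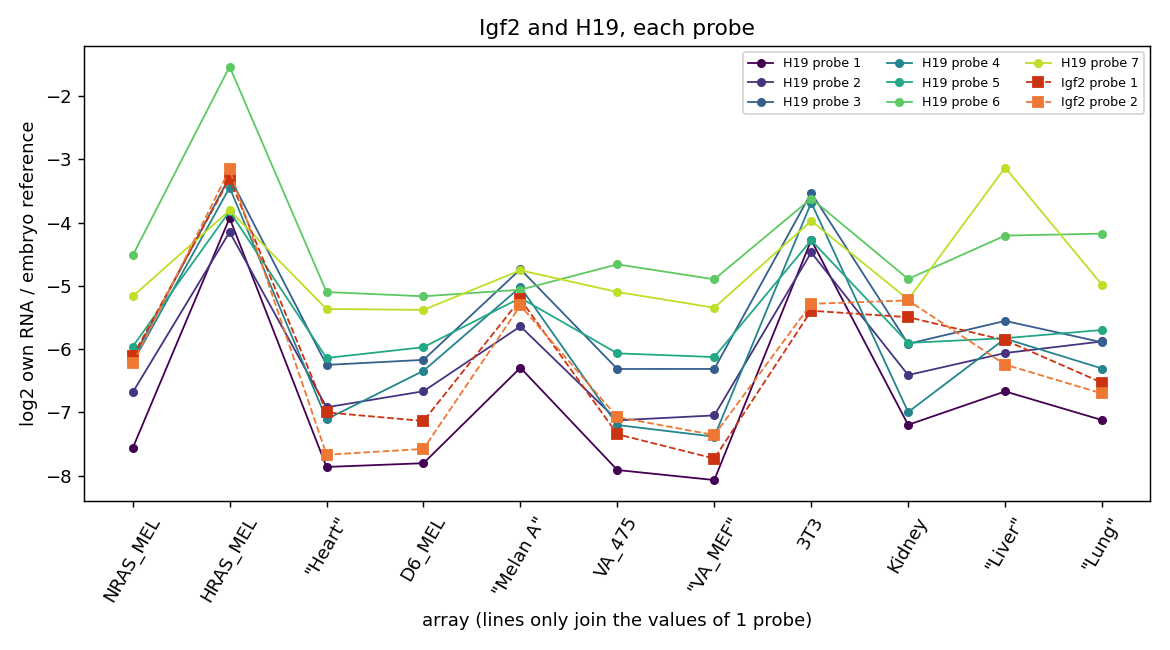
Log2 ratio of own RNA over embryo reference RNA for each of the 7 H19 probes (circles) and 2 Igf2 probes (squares) on the 11 arrays. Lines join values of 1 probe, and labels in quotation marks are those of arrays named by label only. Both genes peak in HRAS_MEL, and 6 of 7 H19 probes have 3T3 next.

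Igf2 and H19 ran together over the arrays, with a Pearson r of 0.87 and a Spearman rho of 0.90 over 11 arrays that share 1 reference RNA. Without HRAS_MEL and the array labelled VA_MEF, the pair farthest from the Igf2 median, r was 0.69. Of all 7035 genes with a value on every array, H19 was at place 3 in likeness to Igf2. The 3T3 array was high for H19 but shared the level of Kidney and the array labelled Melan A for Igf2. That shared level depended on the normalization. After quantile normalization Igf2 stood at -5.05 in 3T3, -7.04 in Kidney and -7.09 in the array labelled Melan A.

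**Figure D3:**
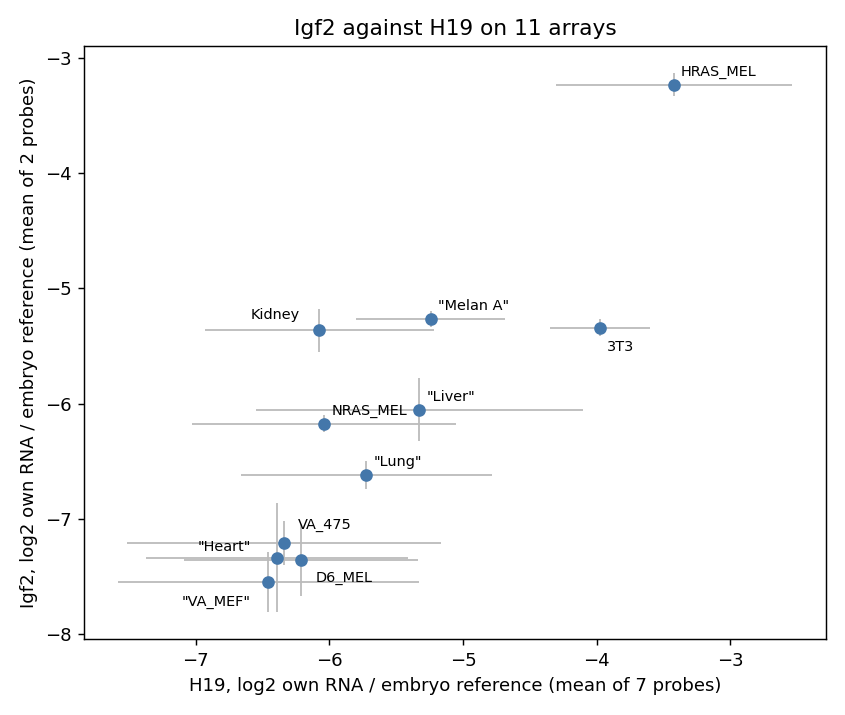
Igf2 (y axis) against H19 (x axis) as log2 ratios of own RNA over embryo reference RNA, 1 point per array. Bars are 1 SD over the probes of a gene, and labels in quotation marks are those of arrays named by label only. HRAS_MEL lies alone at the upper right, at -3.23 and -3.42, and 4 arrays including D6_MEL lie at the lower left.

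Among the other members, Cdkn1c had a rho of 0.79 and an r of 0.31 with Igf2. Leaving out the array labelled Liver gave an r of 0.68. Grb10 and Dlk1 had an r of 0.70 and a rho of 0.65. Plagl1 had an r of 0.26 and a rho of 0.05 with Igf2, and -0.01 for r without HRAS_MEL and the array labelled VA_MEF. These are descriptions over the same 11 arrays.

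The receptor gene Igf2r had the median nearest to the embryo, -0.63 over the 11 arrays. It stood at -0.28 in NRAS_MEL, -0.06 in HRAS_MEL, -0.56 in the array labelled Heart, -0.54 in D6_MEL and 0.08 in the array labelled Melan A. It was at -1.43 in VA_475, -2.25 in the array labelled VA_MEF and -0.63 in 3T3, and between -1.22 and -0.71 in Kidney and the arrays labelled Liver and Lung. Only the gap of 0.82 between VA_475 and the array labelled VA_MEF, the lowest, was beyond the probe spread. Airn, a non-coding RNA read antisense across part of Igf2r, stood at 0.35 in HRAS_MEL and -1.30 in D6_MEL; the strand that these probes detect is not given in the sources used here, so the RNAs of overlapping genes cannot be told apart.

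Cdkn1c, a brake on the cell cycle, had the widest range of the 7, 6.99, wider than that of 99.3% of genes. It was at -5.79 in NRAS_MEL, -5.17 in HRAS_MEL, -6.62 in the array labelled Heart, -6.11 in D6_MEL and -4.17 in the array labelled Melan A. It was at -6.22 in VA_475, -6.39 in the array labelled VA_MEF and -5.17 in 3T3, and at -4.07 in Kidney, 0.37 in the array labelled Liver and -5.22 in the array labelled Lung. The array labelled Liver was therefore 4.45 above the next, Kidney, against a probe spread of 0.60 for that pair. The gap of 1.0 between the array labelled Melan A and HRAS_MEL was the other one beyond it. The order behind this gap depended on the normalization. With quantile normalization, Cdkn1c stood at -4.89 in HRAS_MEL, above Kidney at -5.40 and the array labelled Melan A at -5.74. The array labelled Liver stayed highest, at 0.44. That array also had the highest median of the lung list (2 of 9 measured) and of the endothelial list (4 of 6 measured), at 5.96 and 2.0, where the endothelial medians of the other arrays ran from -2.01 in the array labelled VA_MEF to 0.75 in the array labelled Melan A; the part of these cells in the Cdkn1c value was not tested. In tissue RNA, fewer cells of a type and less RNA per cell cannot be told apart.

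Plagl1, the transcription factor gene, was highest in HRAS_MEL and the array labelled VA_MEF. It stood at -4.92 in NRAS_MEL, -1.27 in HRAS_MEL, -4.46 in the array labelled Heart, -3.55 in D6_MEL and -3.26 in the array labelled Melan A. It stood at -3.07 in VA_475, -1.38 in the array labelled VA_MEF and -4.18 in 3T3, and at -3.43 in Kidney, -3.71 in the array labelled Liver and -3.20 in the array labelled Lung. HRAS_MEL and the array labelled VA_MEF, 0.11 apart, stood 1.69 above the next array, the single gap beyond the probe spread.

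Grb10 was low everywhere but moderately so. It was at -1.60 in NRAS_MEL, -1.46 in HRAS_MEL, -1.25 in the array labelled Heart, -1.10 in D6_MEL and -2.27 in the array labelled Melan A. It was at -1.33 in VA_475, -2.92 in the array labelled VA_MEF and -0.59 in 3T3, and at -2.63 in Kidney, -1.50 in the array labelled Liver and -2.74 in the array labelled Lung. The gap of 0.51 between 3T3 and D6_MEL was the only one beyond the probe spread.

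Dlk1, which holds back fat cell formation in the mouse, was highest in HRAS_MEL and VA_475. It stood at -2.40 in NRAS_MEL, -0.73 in HRAS_MEL, -2.38 in the array labelled Heart, -2.76 in D6_MEL and -3.96 in the array labelled Melan A. It stood at -0.97 in VA_475, -3.85 in the array labelled VA_MEF and -2.49 in 3T3, and at -4.50 in Kidney, -3.17 in the array labelled Liver and -4.07 in the array labelled Lung. The gap of 1.40 below VA_475 was the single gap beyond the probe spread.

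The series title concerns RAS isoforms, so HRAS_MEL was set against D6_MEL. The descriptions give HRAS_MEL a code of its own, so line origin and RAS isoform cannot be told apart in this comparison. HRAS_MEL was higher in 4 of the 7 genes by at least 2-fold and lower by that much in 0. Of all genes 5.23% were at least 2-fold higher there and 5.91% lower, 11.1% in all; since the genes were chosen with this difference known, nothing is read from the count. Igf2 was higher by 4.13 (SD over 2 probes 0.41), 17.5-fold. H19 was higher by 2.79 (SD over 7 probes 0.80), and each of its 7 probes was at least 2-fold higher, from 1.57 to 3.88. Plagl1 was higher by 2.28 and Dlk1 by 2.03. Cdkn1c was higher by 0.93, or by 1.44 with the array labelled Heart as the control, which makes 5 genes, Igf2r by 0.48, and Grb10 lower, at -0.36. After quantile normalization Igf2 was higher by 3.20, H19 by 2.05, Plagl1 by 1.87, Dlk1 by 1.88 and Cdkn1c by 0.38, and the same count of 4 passed 2-fold. The median difference of the 7 was 2.03, against -0.01 over all genes.

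NRAS_MEL lay much closer to D6_MEL. Igf2 was higher by 1.19 (SD over 2 probes 0.24), and Plagl1 was lower, at -1.38, opposite in sign to its difference in HRAS_MEL. The others lay between -0.49 for Grb10 and 0.36 for Dlk1, and H19 was at 0.18, with 0 of its 7 probes 2-fold apart. So 1 of 7 was at least 2-fold higher and 1 lower, where 2.46% and 4.4% of all genes were, 6.86% in all. Each call depended on a setting: Igf2 was at 0.94 after quantile normalization, and Plagl1 was at -0.47 with the array labelled Heart as the control. Both differences share the D6_MEL array.

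Set against HRAS_MEL directly, NRAS_MEL was at least 2-fold lower in 4 of the 7 genes and higher in 0, where 5.08% and 4.27% of all genes were, 9.35% in all. This comparison shares its arrays with both others, and line origin and RAS isoform cannot be told apart here either. Plagl1 was at -3.65, Igf2 at -2.94 (SD over 2 probes 0.18), H19 at -2.62 (SD over 7 probes 0.72) and Dlk1 at -1.66. Cdkn1c, Igf2r and Grb10 lay between -0.62 and -0.14.

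**Figure D4:**
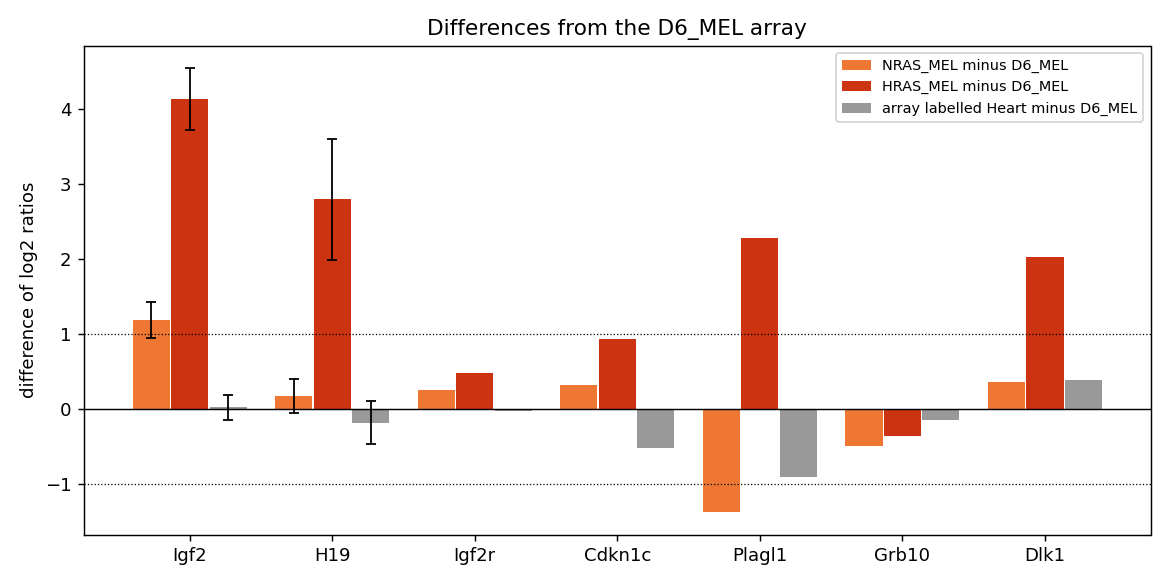
Differences of log2 ratios from the D6_MEL array for the 7 genes in NRAS_MEL, HRAS_MEL and the array labelled Heart; bars for Igf2 and H19 carry 1 SD over their 2 and 7 probes, other genes have 1 probe, and dotted lines mark 2-fold. Igf2, H19, Plagl1 and Dlk1 pass 2-fold upward in HRAS_MEL, and no gene passes it in the array labelled Heart.

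The array labelled Heart, whose markers did not match its label, was set against D6_MEL. Of the 7 genes 0 were 2-fold apart, where 0.862% of all genes were higher and 1.23% lower, 2.09% in all, and Igf2 differed by 0.02. Plagl1 was at -0.91, Cdkn1c at -0.51 and Dlk1 at 0.38, each beyond that pair's probe spread of 0.32.

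D6_MEL was also set against the array labelled Melan A, whose heart markers were high. In D6_MEL, 2 of these 7 were higher by 2-fold or more and 2 were lower, where 12.8% and 14.6% of all genes were, 27.4% in all. In D6_MEL, Dlk1 was higher by 1.20 and Grb10 by 1.17. Igf2 was at -2.10 and Cdkn1c at -1.93, but quantile normalization turned both signs, to 0.71 and 0.47. H19, at -0.97, turned to 1.55 under it, and Plagl1, at -0.29, to 0.69. The order of D6_MEL and the array labelled Melan A for these 4 genes therefore depends on the normalization. Igf2 and H19 also turned between D6_MEL and Kidney and the arrays labelled Liver and Lung, which all stood above D6_MEL before. After quantile normalization Igf2 stood at -6.38 in D6_MEL and -7.04 in Kidney. It stood at -7.66 in the array labelled Liver and -7.96 in that labelled Lung. H19 stood at -5.41, -7.45, -7.01 and -7.12 in the same order.

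VA_475 was compared with 3T3. Igf2 was at -1.87 (SD over 2 probes 0.11) and H19 at -2.36 (SD over 7 probes 1.07), with 7 of 7 H19 probes at least 2-fold lower in VA_475, and Cdkn1c was at -1.04. Dlk1 was higher by 1.51 and Plagl1 by 1.11. These are 3 genes lower and 2 higher, where 4.04% and 3.18% of all genes were, 7.22% in all; after quantile normalization Igf2 was at -0.93 and Cdkn1c at -0.19.

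In the array labelled VA_MEF, 6 of the 7 genes were at least 2-fold lower than in 3T3 and 1 was higher, where 7.89% and 5.87% of all genes were, 13.8% in all. Plagl1 was higher by 2.80. H19 was at -2.48, Grb10 at -2.33, Igf2 at -2.21, Igf2r at -1.62, Dlk1 at -1.36 and Cdkn1c at -1.22. Quantile normalization left Dlk1 at -0.48 and Cdkn1c at -0.11. This comparison and the one before share the 3T3 array. The median of the fibroblast markers was -1.31 in the array labelled VA_MEF and -0.00 in 3T3.

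Genes beside Igf2, H19 and Cdkn1c on chromosome 7 were mostly within 2-fold of D6_MEL, as were most of all genes. Of 24 neighbours listed, 13 were measured. In HRAS_MEL minus D6_MEL 1 was at least 2-fold higher and 1 lower, where 5.23% and 5.91% of all genes were, with a median of -0.08. In NRAS_MEL minus D6_MEL the counts were the same, where the shares of all genes were 2.46% and 4.4%, with a median of 0.11. Lsp1, a leukocyte actin-binding protein gene on the H19 side, was higher by 2.15 in HRAS_MEL, and Tnfrsf23, a decoy receptor gene, lower, at -1.45. Tnfrsf23 was highest in D6_MEL, at 1.17, and stood at 0.02 in the array labelled Heart and -0.27 in HRAS_MEL. Lsp1 stood at 0.66 in HRAS_MEL and -1.49 in D6_MEL. It was at 0.43 in 3T3 and 0.55 in the array labelled Liver, and below 0 on the other 7 arrays. In RefSeq order of assembly GRCm38.p6, 2 genes lie between H19 and Igf2 and 7 between Lsp1 and Igf2.

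The rest of these neighbours were within 2-fold in HRAS_MEL minus D6_MEL. The lysosomal protease gene Ctsd was at 0.39, the mitochondrial ribosome gene Mrpl23 at 0.77, the dopamine synthesis gene Th at 0.68 and Tspan32 at -0.16. The tetraspanin gene Cd81 was at 0.10, Tssc4 at -0.62, the potassium channel gene Kcnq1 at -0.08 and Nap1l4 at -0.08. Phlda2, an imprinted restraint on placental growth, was at 0.33 there but at 1.18 in NRAS_MEL minus D6_MEL. Cars, a tRNA synthetase gene, was at -0.52 and the cholesterol synthesis gene Dhcr7 at -0.84; Dhcr7 was at -1.13 in NRAS_MEL minus D6_MEL.

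**Figure D5:**
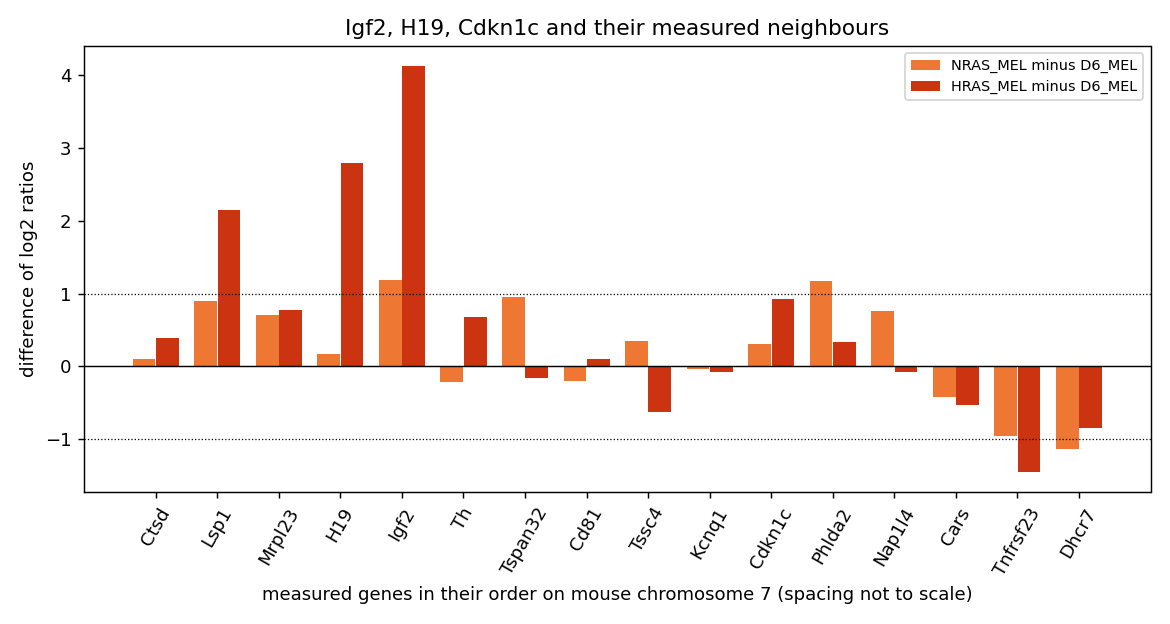
Differences of log2 ratios from D6_MEL in NRAS_MEL and HRAS_MEL for Igf2, H19, Cdkn1c and 13 measured neighbours, in their order on mouse chromosome 7 with spacing not to scale; dotted lines mark 2-fold. The tall HRAS_MEL bars are Igf2 at 4.13, H19 at 2.79 and Lsp1 at 2.15, with the genes between Igf2 and Cdkn1c within 2-fold.

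In the wider IGF system, binding protein genes held 3 of the 4 differences past 2-fold in HRAS_MEL minus D6_MEL. Of 26 genes listed besides Igf2r, 14 were measured. In HRAS_MEL minus D6_MEL 2 were at least 2-fold higher and 2 lower, where 5.23% and 5.91% of all genes were, with a median of 0.32. The 4 were the binding protein genes Igfbp4 at 5.46, Igfbp3 at -2.04 and Igfbp5 at -1.95, and the receptor gene Igf1r at 1.27. The array labelled Heart was also at least 2-fold below D6_MEL for Igfbp3, at -1.49, and Igfbp5, at -1.17. HRAS_MEL was within 2-fold of it for both. Igfbp4 differed by -0.40 and Igf1r by -0.18 between the array labelled Heart and D6_MEL. In NRAS_MEL minus D6_MEL only Igfbp5 passed, at 1.03, with 0 lower and a median of 0.17, where 2.46% of all genes were higher and 4.4% lower. Igf1, the ligand of postnatal growth, stood at 3.60 in the array labelled Lung, whose liver markers were high, and between -2.95 and -0.24 on the other 10 arrays.

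Other imprinted genes were looked at in the same way. Of 70 listed, 36 were measured, and 6 to 13 of them per array were at least 2-fold below the embryo, with medians from -0.66 to -0.16, where the 7 had 5 to 7 below and medians from -4.92 to -1.46. Over all genes, 6.57% to 14.9% per array were at least 2-fold below. The 7 were chosen on these levels, so nothing is read from their contrast with the 36. In HRAS_MEL minus D6_MEL, 3 of the 36 were at least 2-fold higher and 5 lower, where 5.23% and 5.91% of all genes were, with a median of -0.13. Mest, a paternally expressed gene, was at -7.09, the AMP deaminase gene Ampd3 at 3.30, the creatine synthesis gene Gatm at -3.08 and Sfmbt2 at -2.54. In NRAS_MEL minus D6_MEL, 1 of 35 was higher and 3 were lower, with a median of 0.08, among them Mest at -2.05 and Gatm at -2.05 beside Phlda2 and Dhcr7. Of all genes 2.46% were at least 2-fold higher in that comparison and 4.4% lower. The paternally expressed Igf2 and Mest thus lay on opposite sides in HRAS_MEL minus D6_MEL.

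The genes most like each member over the 11 arrays were taken by Pearson r. For Igf2 they were Auts2 at 0.88, Crebbp at 0.87, H19 at 0.87, 9230114K14Rik at 0.85 and Naip3 at 0.85. For H19 they were Fat4 at 0.92, Clca3a1 at 0.89 and Unc13c at 0.88; without HRAS_MEL and 3T3 Unc13c was at 0.11 and Clca3a1 at 0.42. For Igf2r they were Ptov1 at 0.90, Fez2 at 0.89 and Plcd1 at 0.88. For Cdkn1c they were the endothelial cadherin gene Cdh5 at 0.95, Cyp2s1 at 0.95 and Cbr2 at 0.94, and without the array labelled Liver these were 0.86, 0.75 and 0.58. For Plagl1 they were Zfp654 at 0.85, 9930021J03Rik at 0.84 and Gas2l1 at 0.83. Grb10 was closest to Aida at 0.95, Ckap4 at 0.91 and Basp1 at 0.91, and Dlk1 to Pbrm1 at 0.97, the signalling inhibitor gene Socs3 at 0.92 and the kinase inhibitor gene Cdkn2c at 0.92. When the 2 arrays farthest from a member's median were left out, 0 of the 23 genes were still among the closest.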

How the data were processed

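The values deposited by the authors are log2 ratios of the 2 channels of an array (base 2 assumed), in a table of 15247 probes by 11 arrays with 15170 to 15210 values each. Per the labels, RNA was extracted with Trizol and labelled by direct incorporation of dye in reverse transcription. The sources used here name no background correction, normalization, log base or direction; deposited column medians ran from -0.03 to 0.03. Precision is limited by the number of arrays.

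After turning the signs, the array median was subtracted and probes were averaged per gene. Platform annotation gave 1 symbol to 9600 probes and several to 214, and did not list 5433. Differences of 2 arrays were counted at 2-fold or more. The spread between probes is the root mean square SD of the probe differences over the genes with several probes (1810 in all). The likeness ranking and the counting were tested on simulated data. Python 3.11.15, pandas 2.3.3 and numpy 2.4.6 were used.

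The genes, lists and rules were chosen with earlier results of these data known. The rule for named genes took all 7 members, the 3 genes most like each (5 for Igf2), all measured chromosome 7 neighbours, and in each list up to 4 genes with the largest differences past 2-fold from D6_MEL in NRAS_MEL and HRAS_MEL. Lists covered the IGF system, other imprinted genes, neighbours, kinase inhibitors and partners, receptor and Notch partners, embryo genes and cell type markers. Alternatives were no centring, quantile normalization, 1 probe per gene, the median of probes, natural logarithms, the array labelled Heart as the control, other likeness measures and array sets, and, chosen after seeing the data, a 3-fold threshold, H19 without 2 probes, and likeness without the 2 arrays farthest from a member's median or without the array labelled Liver.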

Additional observations from a re-analysis of the deposited data

How the results depend on the processing

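With 1 array per group no replicate could be left out, and no paired analysis was possible because the groups have no replicate numbers to share. Of 266 recomputed differences of the 7 genes, 212 moved by less than the probe spread, 52 by more, and 2 that were past 2-fold changed sign; of the rest, 6 differences under 2-fold also changed sign, 8 in all, of which 7 under quantile normalization. No centring and the median of probes moved 0 of 49 each by more than that spread. The 2 past 2-fold were D6_MEL minus the array labelled Melan A under quantile normalization, Igf2 at 0.71 and Cdkn1c at 0.47; H19 at 1.55 and Plagl1 at 0.69 turned in the same comparison. The cause was not tested. Under it, 1 gene instead of 2 was 2-fold apart in NRAS_MEL minus D6_MEL, 3 instead of 5 in VA_475 minus 3T3, and 12 list genes instead of 7 in NRAS_MEL minus D6_MEL; 8 of 14 highest and lowest arrays were shared, 6 of the 7 highest and 2 of the 7 lowest, and Plagl1 was then highest in the array labelled VA_MEF, at -1.13. With the array labelled Heart as the control, 1 gene was apart in the NRAS_MEL comparison. A 3-fold threshold left 0 there, 2 in D6_MEL minus the array labelled Melan A and 2 in VA_475 minus 3T3. Natural logarithms would put 1 gene, Plagl1, past 2-fold between the array labelled Heart and D6_MEL. Of the 23 genes most like the members, 5 were shared with Spearman's rho, 4 with quantile normalization, 4 without the 4 arrays labelled as organs, 13 without the array labelled Liver and 0 without the 2 arrays farthest from each member's median. Signal over background is unknown, so ratios of the lowest genes may be bounds.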

Other observations

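Genes beyond the IGF and imprinted lists were looked at for partners of the 7. Of 14 cell cycle inhibitors and partners written, 9 were measured. In HRAS_MEL minus D6_MEL 1 was at least 2-fold higher, Cdkn2c, a kinase inhibitor gene, at 1.02. The cyclin genes Ccnd1 at -1.55 and Ccne1 at -1.20 were lower by that much, and the list median was -0.09. Of all genes 5.23% were at least 2-fold higher there and 5.91% lower. With the array labelled Heart as the control, only Ccnd1 passed 2-fold. Cdkn2c stood at 1.22 in HRAS_MEL and 0.41 in the array labelled Heart, and Ccne1 at -0.92 and -0.07. In NRAS_MEL minus D6_MEL 0 of the 9 passed 2-fold in either direction, where 6.86% of all genes did. For Igf2r, Dlk1 and Plagl1, 18 partners in mannose 6-phosphate sorting, Notch signalling and the Plag family were written and 5 were measured. Of these 0 were 2-fold from D6_MEL in either RAS-named array, where 11.1% of all genes were in HRAS_MEL and 6.86% in NRAS_MEL. The Notch ligand gene Jag1 came closest, at 0.98 in HRAS_MEL.

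Of 9 embryo genes written, 3 were measured. The embryonic globin genes Hba-x and Hbb-y lay below the embryo on all 11 arrays, where 54.2% of all gene values lay below 0. Hba-x ran from -3.16 to -0.26 and Hbb-y from -3.35 to -1.14, while Igf2 and H19 reached at most -3.23 and -3.42. Hmga2, a chromatin protein gene of the fetus, stood at 3.92 in NRAS_MEL, 2.17 in HRAS_MEL and 3.03 in D6_MEL. It was also at 3.07 in VA_475, 2.77 in 3T3, 2.48 in the array labelled Heart and 0.47 in the array labelled VA_MEF. Its ratio lay below 0 in Kidney and the arrays labelled Melan A, Liver and Lung. Hba-x was at -0.26 in NRAS_MEL, -1.43 in HRAS_MEL, -1.46 on the array labelled Heart and -3.16 in D6_MEL, so D6_MEL was the lowest of these 4. It was 1.70 higher in the array labelled Heart than in D6_MEL, whereas Igf2 differed by 0.02 between them.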
